A study of Mus musculus with 8 samples.

Results

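The 10 genes described here are the immediate early genes Fos, Fosb, Jun, Junb, Egr1, Atf3, Ier2, Nr4a1, Klf6 and Dusp1, chosen by symbol among the 32285 genes counted in nuclei of mouse kidney. All 10 were detected in each of 8 libraries, each made from the kidney of 1 male mouse on a C57BL/6J background. Control mice (Ctrl) carried Bmal1 lox/lox, and cKOt littermates carried Bmal1 lox/lox/Pax8-rtTA/LC-1, in which the Pax8 promoter drives a doxycycline-dependent Cre in renal tubules. Mice of both genotypes were given 2 mg/ml doxycycline with 20 mg/ml sucrose for 2 weeks from 8 weeks of age, were kept under 12 h of light and 12 h of dark, and were killed at 14 weeks, at ZT4 in the light phase or at ZT16 in the dark phase. Each combination of genotype and time held 2 mice, replicates 1 and 2. The p-values of the fitted models below set a difference against the spread between replicate mice, estimated over all 4 groups together. Exact permutation tests, where named, used the 8 libraries instead.

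Immediate early genes are transcribed within minutes of a stimulus from factors already present in the cell, without new protein synthesis. Growth factors, calcium, stretch and stress reach them through mitogen-activated protein kinases, serum response factor and CREB, and their short-lived mRNAs mostly encode transcription factors that act on a later wave of genes. In kidney they are known to rise early after ischaemia, and in many tissues they rise during dissociation. The study's methods state that the mice were anaesthetized and perfused through the heart. The kidneys were then sliced and frozen before nuclei were isolated and sorted by DNA stain. The part of these steps in the levels was not tested.

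Promoter sequences are shown for 4 members, Fos, Nr4a1, Klf6 and Dusp1, and not for Egr1, for which no promoter window was examined. They come from RefSeq on GRCm38.p6, give the 250 bases before the annotated start, 5′ to 3′ on the strand of the gene, and cover chr12:85473640-85473889 for Fos and chr15:101266596-101266845 for Nr4a1, on the plus strand, chr13:5861239-5861488 for Klf6, on the plus strand, and chr17:26508473-26508722 for Dusp1, on the minus strand. Capitals mark the half-site TGACG (or CGTCA on the other strand) of the cyclic AMP response element, which CREB binds, the E-box CACGTG, which BMAL1 binds together with CLOCK, and the TATA box TATAAA.
Fos: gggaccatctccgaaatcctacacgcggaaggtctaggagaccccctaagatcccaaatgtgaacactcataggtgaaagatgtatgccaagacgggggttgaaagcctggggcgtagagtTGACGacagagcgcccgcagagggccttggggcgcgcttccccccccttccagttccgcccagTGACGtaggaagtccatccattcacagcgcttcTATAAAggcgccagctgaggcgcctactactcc
Nr4a1: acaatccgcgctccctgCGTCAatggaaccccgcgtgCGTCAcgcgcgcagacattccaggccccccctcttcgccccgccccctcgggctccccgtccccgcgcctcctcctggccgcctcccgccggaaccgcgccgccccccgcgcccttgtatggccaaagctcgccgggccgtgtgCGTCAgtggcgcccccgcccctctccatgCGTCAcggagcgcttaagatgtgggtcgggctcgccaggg
Klf6: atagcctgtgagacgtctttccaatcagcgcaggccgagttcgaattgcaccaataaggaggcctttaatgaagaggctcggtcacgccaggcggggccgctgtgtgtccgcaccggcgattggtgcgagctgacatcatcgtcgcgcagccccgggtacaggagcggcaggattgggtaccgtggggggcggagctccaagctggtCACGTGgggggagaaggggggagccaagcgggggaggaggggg
Dusp1: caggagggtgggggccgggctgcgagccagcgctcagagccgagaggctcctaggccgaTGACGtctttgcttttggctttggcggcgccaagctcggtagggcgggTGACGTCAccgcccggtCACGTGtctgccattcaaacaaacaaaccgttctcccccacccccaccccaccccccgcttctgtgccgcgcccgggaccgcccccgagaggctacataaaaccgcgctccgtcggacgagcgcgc
Promoter windows were examined for 8 members, and not for Egr1 and Ier2. Of these 8, 6 held TGACG in the 300 bases from 250 before to 50 after the start. The share was 20.8% among 32817 promoter windows of that length. Nr4a1 held 4 copies. Of the 8, Dusp1 alone held the palindrome TGACGTCA, in which 2 copies overlap and which 1.79% of windows held. CACGTG was found in Klf6 and Dusp1 and in 7.15% of windows. None of the 8 held the AP-1 site TGACTCA (5.21% of windows) in this window. A match describes the letters and does not show binding.

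The 8 libraries held 82784 barcodes, of which 81391 were kept, with 36548873 to 54500820 UMIs a library and a median of 3003.5 UMIs per nucleus in the shallowest. Of 80565 distinct barcodes, 823 occurred in 2 or more libraries (1.02%). Mitochondrial genes took 0.0153 to 0.0327% of UMIs. Arntl, the gene that encodes BMAL1 and is targeted in cKOt, was not lower in cKOt (39.2 and 33.1 UMIs per 1000000 mRNA UMIs, CPM, in Ctrl ZT4 against 288 and 203 in cKOt ZT4). At ZT16 it was at 160.4 and 157 CPM in Ctrl and at 294 and 258 CPM in cKOt. A count over the whole gene does not resolve the deleted exon, so it does not check the genotype, and the labels were taken as given.

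Over all nuclei, the members were set apart first by the distance between replicate mice, which for 8 of 10 members was greatest in Ctrl ZT4. Fos, the founding partner of the AP-1 dimer, was at 15.8 and 1.66 CPM in replicates 1 and 2 of Ctrl ZT4, at 10.8 and 8.05 in Ctrl ZT16, at 10.3 and 3.56 in cKOt ZT4 and at 13.5 and 7.47 in cKOt ZT16. Replicate 1 thus lay above replicate 2 in every group, by 9.50-fold in Ctrl ZT4. Fosb, its close relative, was at 4.58 and 0.674 CPM in Ctrl ZT4, 0.619 and 0.757 in Ctrl ZT16, 1.49 and 0.939 in cKOt ZT4 and 1.96 and 0.921 in cKOt ZT16. It had only 28 to 138 UMIs a library. Jun, the partner of FOS proteins, was at 63.1 and 22.2 CPM in Ctrl ZT4, 58.5 and 41.4 in Ctrl ZT16, 85.9 and 46.9 in cKOt ZT4 and 107 and 69.1 in cKOt ZT16. Junb, which competes with JUN in AP-1, was at 40.2 and 18.5 CPM in Ctrl ZT4, 42.0 and 32.9 in Ctrl ZT16, 25.2 and 22.5 in cKOt ZT4 and 53.8 and 31.3 in cKOt ZT16. For Jun and Junb the lowest of all 8 libraries was Ctrl ZT4 replicate 2, and the times overlapped within Ctrl.

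Egr1, a zinc finger factor induced through serum response factor, was at 149 and 34.8 CPM in Ctrl ZT4, 77.2 and 69.2 in Ctrl ZT16, 121 and 45.5 in cKOt ZT4 and 103 and 75.8 in cKOt ZT16. The highest and the lowest of the 8 libraries were thus the 2 mice of 1 group. Nr4a1, an orphan nuclear receptor induced by calcium and cyclic AMP, was at 33.0 and 5.10 CPM in Ctrl ZT4, 10.1 and 6.27 in Ctrl ZT16, 20.5 and 6.84 in cKOt ZT4 and 12.2 and 7.78 in cKOt ZT16, again with its extremes in Ctrl ZT4. Atf3, a stress-induced member of the ATF/CREB family, was at 2.39 and 0.794 CPM in Ctrl ZT4, 0.884 and 1.22 in Ctrl ZT16, 2.87 and 0.795 in cKOt ZT4 and 0.957 and 0.895 in cKOt ZT16, on 33 to 102 UMIs a library, and was furthest apart in cKOt ZT4. Ier2, a small nuclear protein of the same early response, ranged from 8.21 CPM in Ctrl ZT4 replicate 2 to 26.98 CPM in cKOt ZT16 replicate 1. Klf6, a Krüppel-like factor, stayed between 20.3 and 30.9 CPM, with its replicates also furthest apart in cKOt ZT4. Dusp1, the phosphatase that switches the mitogen-activated protein kinases off again, was at 81.8 and 37.8 CPM in Ctrl ZT4, 61.6 and 62.1 in Ctrl ZT16, 54.0 and 40.6 in cKOt ZT4 and 38.0 and 35.9 in cKOt ZT16. In sums over all nuclei, fewer cells of a type that holds a gene and less RNA per cell cannot be told apart.

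**Figure D1:**
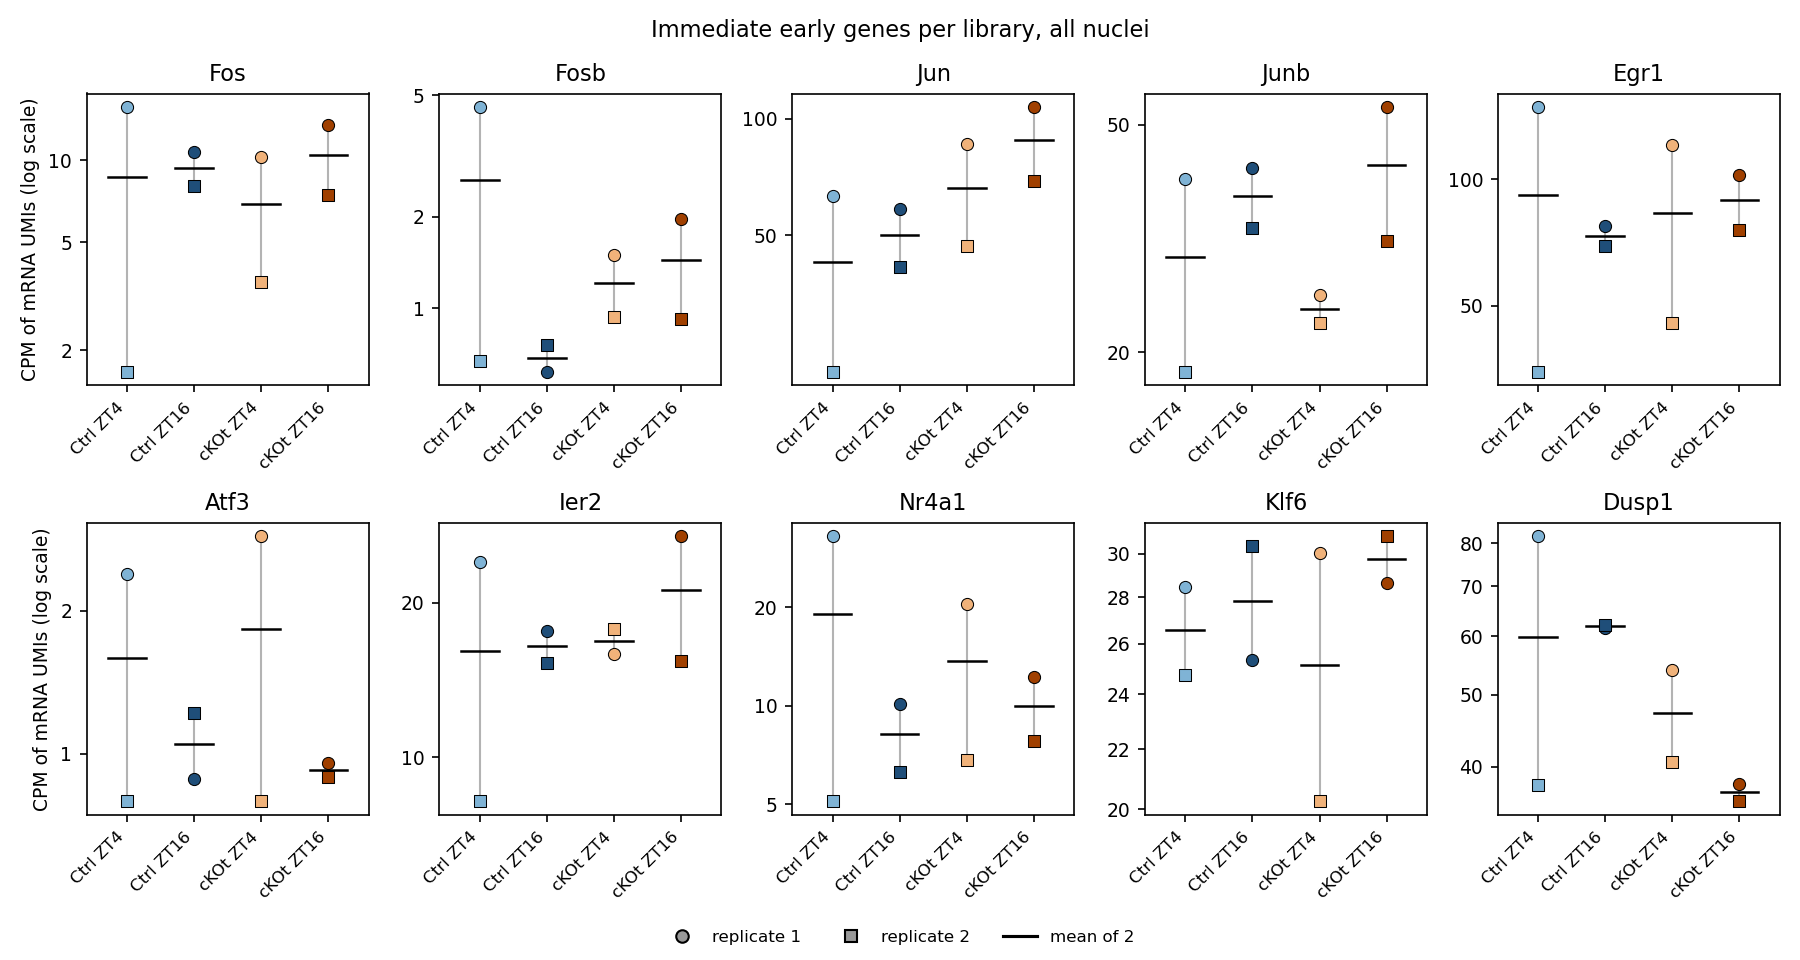
CPM of mRNA UMIs over all nuclei for each of the 10 genes (log scale, 1 panel a gene) in the 4 groups. Circles are replicate 1, squares replicate 2 and lines the mean of the 2 mice. In Ctrl ZT4 replicate 1 lies above replicate 2 for all 10 genes, from 1.15-fold for Klf6 to 9.50-fold for Fos.

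The members varied more between replicate mice than most mRNAs did. The median absolute log2 difference between replicates over the 10 members was 1.45 in Ctrl ZT4, 0.24 in Ctrl ZT16, 0.70 in cKOt ZT4 and 0.61 in cKOt ZT16, while over 16351 tested mRNAs it was 0.14, 0.17, 0.19 and 0.14. In Ctrl ZT4 all 10 members were higher in replicate 1, which held for 53.9% of mRNAs. The library of that replicate 1 had the fewest UMIs, the lowest median UMIs per nucleus and the highest mitochondrial share of the 8, and their part in the spread was not tested. By the mean of this difference over the 4 groups, Nr4a1 and Fos stood at the percentile 99.9 of tested mRNAs, Egr1 at 99.7, Jun at 99.5 and Fosb at 99.1. Ier2, Junb, Atf3 and Dusp1 stood between 92.4 and 98.6, and Klf6 stood at 77.2. Fos, Jun, Junb, Egr1 and Nr4a1 were higher in replicate 1 in all 4 groups, 5 of 10 members against 13.9% of mRNAs. The labels tie no batch to the replicate numbers, and same-numbered mice of a time point were not fitted as pairs. The summed CPM of 12 heat shock genes was 609 and 591 in Ctrl ZT4, 969 and 1075 in Ctrl ZT16, 1503 and 548 in cKOt ZT4 and 1190 and 724 in cKOt ZT16. These genes stood near each other in the Ctrl ZT4 mice, whose early genes were far apart, and their part in the spread was not tested.

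No member passed edgeR's test over all nuclei. None lay without overlap on the same side at ZT16 in both genotypes (0 of 10, against 7.91% of mRNAs lower and 5.39% higher), nor in cKOt at both times (0 of 10, against 2.98% higher and 6.94% lower). With edgeR's quasi-likelihood test and Benjamini-Hochberg adjustment over all mRNAs, 0 of 10 members were called between ZT16 and ZT4 in Ctrl (0.142% of 16165 mRNAs were called) and 1 had an unadjusted p under 0.05, Fosb with a log2 fold change of −1.90 (adjusted p = 0.465). Between ZT16 and ZT4 in cKOt the test called 0 of 10 members (0% of 16069 mRNAs), with Junb alone at an unadjusted p under 0.05 (log2 fold change 0.84, adjusted p = 0.557 in edgeR). Between cKOt and Ctrl it called 0 of 10 at ZT4 (0.446%), none with an unadjusted p under 0.05, and 0 of 10 at ZT16 (0.174%), where 1 had one, Dusp1 at a log2 fold change of −0.69 (adjusted p = 0.804 in edgeR). The change of the time effect with genotype was called for 0 of 10 members (0.0183%), none with p under 0.05. DESeq2 called 0 members in each of these 5 contrasts, in which it called 1.45%, 1.05%, 2.13%, 1.06% and 0.294% of mRNAs. In 2 contrasts added after the values were seen, edgeR likewise called 0 of 10 members, between times over both genotypes (0.544%, with Junb alone at an unadjusted p under 0.05, 0.60 and adjusted p = 0.323) and between genotypes over both times (0.948%, with 2 members, Jun at 0.78 and adjusted p = 0.454 and Dusp1 at −0.50 and adjusted p = 0.473). DESeq2 called 0 members in these as well, and 3.13% and 2.63% of mRNAs. With the replicate number as a block, DESeq2 called Junb between times over both genotypes (0.61, adjusted p = 0.0124; 4.07% of mRNAs called) and Jun between genotypes over both times (0.80, adjusted p = 0.000505; 3.23%), and edgeR called neither (adjusted p = 0.131 and 0.0994). Leaving out replicate 1 of Ctrl ZT4 turned the direction of 11 of the 40 member fold changes, none of them called. Without that mouse, for example, Egr1 between times in Ctrl went from −0.32 to 1.06 and Nr4a1 from −1.20 to 0.66.

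Nuclei were grouped into classes by markers, with the members left out of the genes used for clustering, and 19 classes with at least 10 nuclei in every library were compared. The members divided between 5 leading classes. Mesangial or pericyte-like nuclei (Mes/Per, 8503 nuclei), supporting cells beside capillaries and vessels, led for Fos, Junb, Egr1, Ier2 and Dusp1. Most of them (7340) were cluster 1, led by Kcnd3, Grm7, Ak5, Rerg and Fbln5, in which all 12 listed markers were high. That list also holds genes of fibroblasts such as Pdgfra, Col1a2 and Col3a1, and mesangial, pericyte and other stromal nuclei were not separated. Egr1 was at 505 ± 164 CPM there (SD, n = 8 libraries), ahead of cortical collecting duct-like nuclei (CCD, 279.7 ± 227), medullary collecting duct-like nuclei (MCD, 201 ± 246) and thin descending limb-like nuclei (thinDL, 141 ± 183), and was lowest in distal convoluted tubule-like nuclei (DCT1, 19.5 ± 9.49). Fos was at 69.3 ± 43.9 CPM in Mes/Per, ahead of type B intercalated-like nuclei (bIC, 45.1 ± 37.4) and lowest in proximal straight tubule-like nuclei (PST, 1.39 ± 0.715). Mes/Per nuclei held 50.8% of all Fos UMIs, 46.8% of those of Fosb, 39.7% of those of Egr1 and 37.5% of those of Junb, with 6.45% of all mRNA UMIs.

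The other members had other leading classes. Jun was highest in proximal convoluted tubule-like nuclei (PCT, 129.8 ± 45.2 CPM), ahead of endothelial-like nuclei (Vasc, 78.6 ± 15.7) and podocyte-like nuclei (Podo, 67.2 ± 25.0). PCT and PST together held 69.6% of Jun UMIs with 46.1% of mRNA UMIs. Nr4a1 was highest in smooth muscle or juxtaglomerular-like nuclei (SMC/JGC, 105 ± 85.4 CPM, on 3 to 36 UMIs a library), then in Mes/Per (79.7 ± 67.8) and Vasc (34.8 ± 29.1), and nearly absent from cluster 17, a cluster of 1704 nuclei with thin limb markers that was left unnamed (0.445 ± 0.618). Klf6 was highest in myeloid-like nuclei (Myel, 103 ± 23.5 CPM) and then in T or NK-like nuclei (TC/NK, 62.4 ± 25.3), the immune classes. Atf3 was also highest in Myel (19.0 ± 7.01 CPM) and at 0.214 ± 0.398 in MCD. Fosb was at 15.3 ± 15.9 CPM in bIC and 11.4 ± 14.3 in Mes/Per, on 0 to 37 and 7 to 92 UMIs a library. Its Mes/Per mean rested largely on Ctrl ZT4 replicate 1, at 46.3 CPM, with the other libraries at 2.14 to 9.70 CPM. In bIC, cKOt ZT16 replicate 1 was at 50.6 CPM and the other libraries at 0 to 21.8 CPM. Dusp1 was at 116 ± 35.4 CPM in Mes/Per and 100.2 ± 12.5 in Vasc, the class in which its SD was smallest relative to its mean (12.4%).

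**Figure D2:**
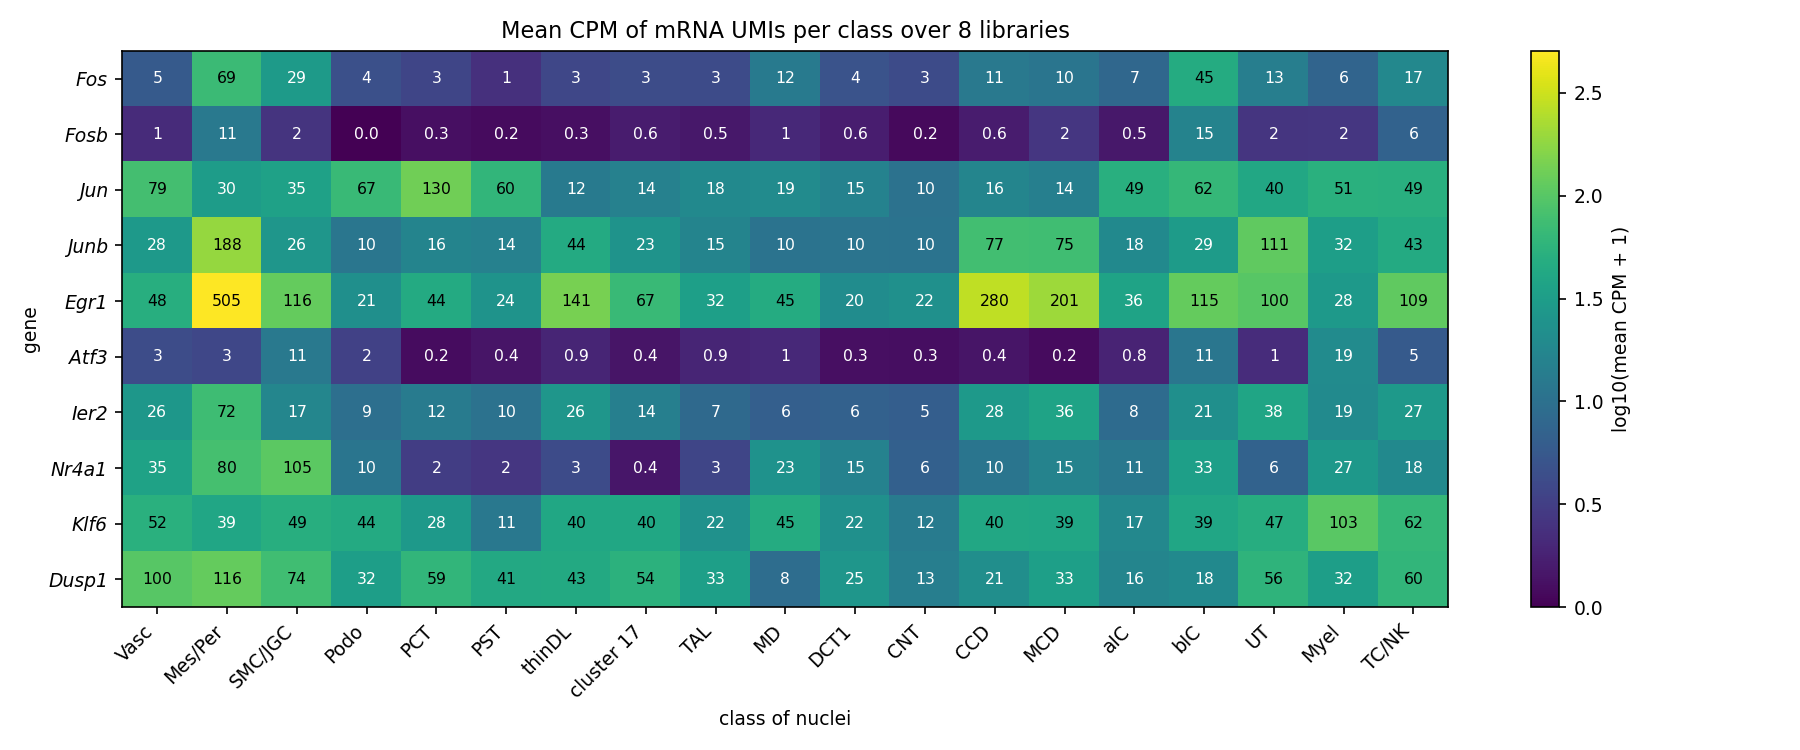
Mean CPM of mRNA UMIs over 8 libraries for each gene (rows) in 19 classes of nuclei (columns), printed in each cell and shaded by log10(mean CPM + 1). Mes/Per is the brightest cell for Fos, Junb, Egr1, Ier2 and Dusp1, PCT for Jun, SMC/JGC for Nr4a1, bIC for Fosb and Myel for Atf3 and Klf6.

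Neighbours in these orders were compared within the 8 libraries. All 8 libraries kept the order for 3 of 180 neighbouring pairs, where an exact two-sided sign-flip permutation test gave its smallest possible p (0.00781), Mes/Per over UT (urothelial-like) for Ier2, Myel over TC/NK for Klf6 and type A intercalated-like nuclei over connecting tubule-like nuclei for Klf6, and in the other pairs at least 1 library went against the order of the means or was tied. With so few libraries the Benjamini-Hochberg adjusted p (0.469 at the lowest) could hardly pass over 180 pairs and does not show that neighbours were alike. Mes/Per exceeded CCD for Egr1 in 7 of 8 libraries (exact permutation p = 0.0234, adjusted p = 0.502). It exceeded bIC for Fos and Vasc for Dusp1 in only 5 of 8 libraries each (p = 0.109 and 0.469 by the same exact test). With nuclei thinned to 1000 UMIs, which left out 38 to 298 shallower nuclei a library, 30.6 ± 8.60% of Mes/Per nuclei had an Egr1 UMI, 18.5 ± 14.5% of CCD nuclei and 0.819 ± 0.752% of DCT1 nuclei, the lowest share. For Junb the shares were 13.9 ± 6.52% in Mes/Per and 0.710 ± 0.601% in DCT1, and for Fos 4.71 ± 3.21% in Mes/Per and 0.141 ± 0.171% in PST.

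With all 8 libraries, the member differences between time points that passed edgeR's test were 3 in endothelial-like nuclei (12727), in the contrast over both genotypes added after the values were seen. This count over all classes went from 3 to between 0 and 9 when 1 mouse was left out. Egr1 in Vasc was at 91.8 and 46.2 CPM in Ctrl ZT4, 32.0 and 19.2 in Ctrl ZT16, 66.9 and 62.3 in cKOt ZT4 and 31.5 and 37.2 in cKOt ZT16. Nr4a1 was at 101 and 27.1 CPM in Ctrl ZT4, 17.9 and 7.19 in Ctrl ZT16, 44.2 and 37.6 in cKOt ZT4 and 23.3 and 19.9 in cKOt ZT16. Ier2 was at 36.1 and 27.1 CPM in Ctrl ZT4, 20.7 and 13.2 in Ctrl ZT16, 27.4 and 43.5 in cKOt ZT4 and 19.5 and 21.8 in cKOt ZT16. For all 3 genes every ZT16 library lay below every ZT4 library, across genotypes. Atf3 also lay lower at ZT16 in both genotypes, on 5 to 19 UMIs a library, so 4 of 9 tested members did, against 7.26% of 13091 mRNAs.

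The log2 fold change from ZT4 to ZT16 over both genotypes was −1.14 (SE 0.20, adjusted p = 0.0114) for Egr1, −1.59 (SE 0.35, adjusted p = 0.0349) for Nr4a1 and −0.82 (SE 0.19, adjusted p = 0.0438) for Ier2 with edgeR's quasi-likelihood test. It called 1.73% of Vasc mRNAs, 0.94% as lower. Jun, Klf6 and Dusp1 had fold changes of 0.22, 0.21 and −0.17 in the same nuclei, and were not called. Atf3 and Junb were lower at ZT16 (differences in mean log2 level of −0.82 and −0.41) and were not called either. Within Ctrl none was called by edgeR (Egr1 −1.40, adjusted p = 0.0571, and Nr4a1 −2.29, adjusted p = 0.0750; 0.506% of mRNAs called), nor within cKOt (Egr1 −0.88, adjusted p = 0.402, and Nr4a1 −0.89, adjusted p = 0.687; 0.196%). A change of the time effect with genotype was not called for any member in Vasc (0%). Within Ctrl, edgeR called both genes with the replicate number as a block (adjusted p = 0.0406 for Egr1 and 0.0227 for Nr4a1), without called doublets and with 50 principal components in the clustering, and also without Ctrl ZT4 replicate 2 (−1.83 for Egr1) and without either mouse of cKOt ZT4 (−1.40 for Egr1 and −2.29 for Nr4a1). Over the 8 omissions the fold change within Ctrl ran from −1.83 to −0.85 for Egr1 (adjusted p up to 0.411 in edgeR) and from −3.08 to −1.10 for Nr4a1 (up to 0.447), both smallest without Ctrl ZT4 replicate 1. Where 1 mouse of a group was left out, the spread came from the other groups and the lone mouse was assumed to vary like them. The calls over both genotypes depended on single mice. Egr1 was lost without Ctrl ZT16 replicate 2 (adjusted p = 0.0501) or cKOt ZT16 replicate 1 (0.0851), with edgeR fold changes from −1.36 to −0.87 over the 8 omissions. Nr4a1 was lost without Ctrl ZT4 replicate 1 (adjusted p = 0.0835), Ctrl ZT16 replicate 2 (0.127) or either cKOt ZT16 mouse (0.143 and 0.141), its fold changes running from −1.99 to −0.999. Ier2 stayed called in edgeR only without Ctrl ZT16 replicate 1 (0.0465) or cKOt ZT4 replicate 1 (0.0107), with adjusted p up to 0.190 otherwise. DESeq2 kept Egr1 (adjusted p = 5.29e-05) and Ier2 (0.0374) and not Nr4a1 (0.104), and edgeR with the block kept Egr1 and Nr4a1 and not Ier2 (adjusted p = 0.0628).

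Vasc nuclei fell into several clusters, which were then taken apart. Cluster 0, led by Btnl9, Esm1 and Kdr, held 8707 nuclei and 65.2 to 73.7% of Vasc in each library. There Egr1 was at 112 and 60.8 CPM in Ctrl ZT4, 30.4 and 18.8 in Ctrl ZT16, 79.3 and 78.3 in cKOt ZT4 and 34.3 and 43.4 in cKOt ZT16. All ZT16 libraries lay below all ZT4 libraries for Egr1, Nr4a1, Ier2 and Atf3 in cluster 0, 4 of 9 tested members against 5.35% of mRNAs. Cluster 10, led by Nlgn1, Igf1 and Plvap, held 3285 nuclei, and its Egr1 levels of 55.7 and 7.02, 34.7 and 18.6, 51.8 and 32.6 and 27.7 and 21.7 CPM (groups in the same order) overlapped between times in Ctrl, through the lower ZT4 mouse, and did not overlap in cKOt. Its Nr4a1, on 40 UMIs in all, was at 18.6 and 4.68, 3.25 and 1.03, 9.14 and 5.93 and 10.4 and 2.56 CPM, without overlap between times in Ctrl and with overlap in cKOt. No member of 7 tested had all ZT16 libraries below all ZT4 libraries in cluster 10, against 2.21% of mRNAs. Its counts are lower, and whether the time difference differed between clusters 0 and 10 was not tested. The summed CPM of 10 Vasc markers ranged from 19261 to 20726 at ZT4 and from 20723 to 21925 at ZT16 in Vasc nuclei. Markers of Mes/Per, the class with the highest Egr1, summed to 199 to 264 CPM at ZT4 and to 222 to 390.3 CPM at ZT16. Heat shock genes summed to 793 to 1956 CPM at ZT4 and to 1199.7 to 1749 CPM at ZT16. The part of each of these sums in the difference was not tested.

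In Mes/Per nuclei the same genes took other values. Junb was at 191 and 96.0 CPM in Ctrl ZT4, 294 and 176 in Ctrl ZT16, 72.8 and 123 in cKOt ZT4 and 362 and 194 in cKOt ZT16. The groups of cKOt did not overlap, while those of Ctrl did. Its log2 fold change from ZT4 to ZT16 over both genotypes was 1.08 (SE 0.25) and was not called by edgeR (adjusted p = 0.0841; 0.734% of 12941 mRNAs were called). Without Ctrl ZT4 replicate 1 it was 1.37 and called (adjusted p = 0.0314), as were Fos (2.19, adjusted p = 0.00442), Ier2 (1.41, adjusted p = 0.0243), Egr1 (0.82, adjusted p = 0.0230) and Dusp1 (0.77, adjusted p = 0.0339) in Mes/Per. The same omission called Egr1 in CCD (3.18), connecting tubule-like nuclei (1.91) and Vasc (−0.87) and Jun in PCT (0.98), 9 pairs in all while 0.478% of all class tests were called. These pairs were higher at ZT16 except Egr1 in Vasc. Egr1 was at 745 and 279.6 CPM in Ctrl ZT4, 629 and 475 in Ctrl ZT16, 384 and 337 in cKOt ZT4 and 644 and 548 in cKOt ZT16. Nr4a1 was at 224 and 11.6 CPM in Ctrl ZT4, 66.2 and 39.6 in Ctrl ZT16, 109 and 24.7 in cKOt ZT4 and 103 and 59.2 in cKOt ZT16. In both genes the mice of Ctrl ZT4 enclosed all other libraries. Fos was at 133 and 10.1 CPM in Ctrl ZT4, 101 and 71.2 in Ctrl ZT16, 42.2 and 25.7 in cKOt ZT4 and 115 and 56.2 in cKOt ZT16.

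Vasc was then set against Mes/Per within each mouse, and the result was compared between mice killed at ZT4 and at ZT16, with genotypes pooled. In each library the log2(CPM + 1) of Mes/Per was subtracted from that of Vasc, so that a shift common to both classes of a mouse cancels, and the 4 ZT16 values were compared with the 4 ZT4 values. The mean at ZT16 minus the mean at ZT4 was −1.77 for Nr4a1, −1.65 for Ier2, −1.62 for Egr1 and −1.52 for Junb, without overlap between times. These were 4 of the 8 members tested in both classes, against 4.21% of 12427 mRNAs that were lower without overlap in the same way. Each had an exact two-sided permutation p of 0.0286, the smallest that 4 against 4 mice allow. From ZT4 to ZT16, Nr4a1 moved by −1.50 in Vasc and by 0.27 in Mes/Per, and Egr1 by −1.13 and 0.49. Ier2 moved by −0.80 and 0.85 and Junb by −0.41 and 1.11, so that part of each difference was a rise in Mes/Per. For Fos the difference was −1.14 (exact permutation p = 0.0571), from 0.063 in Vasc and 1.21 in Mes/Per. For Jun it was 0.11 (exact permutation p = 0.771), and for the other 4 members p was 0.171 to 0.514 by the same exact test. This comparison was chosen after the levels in both classes were seen.

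**Figure D3:**
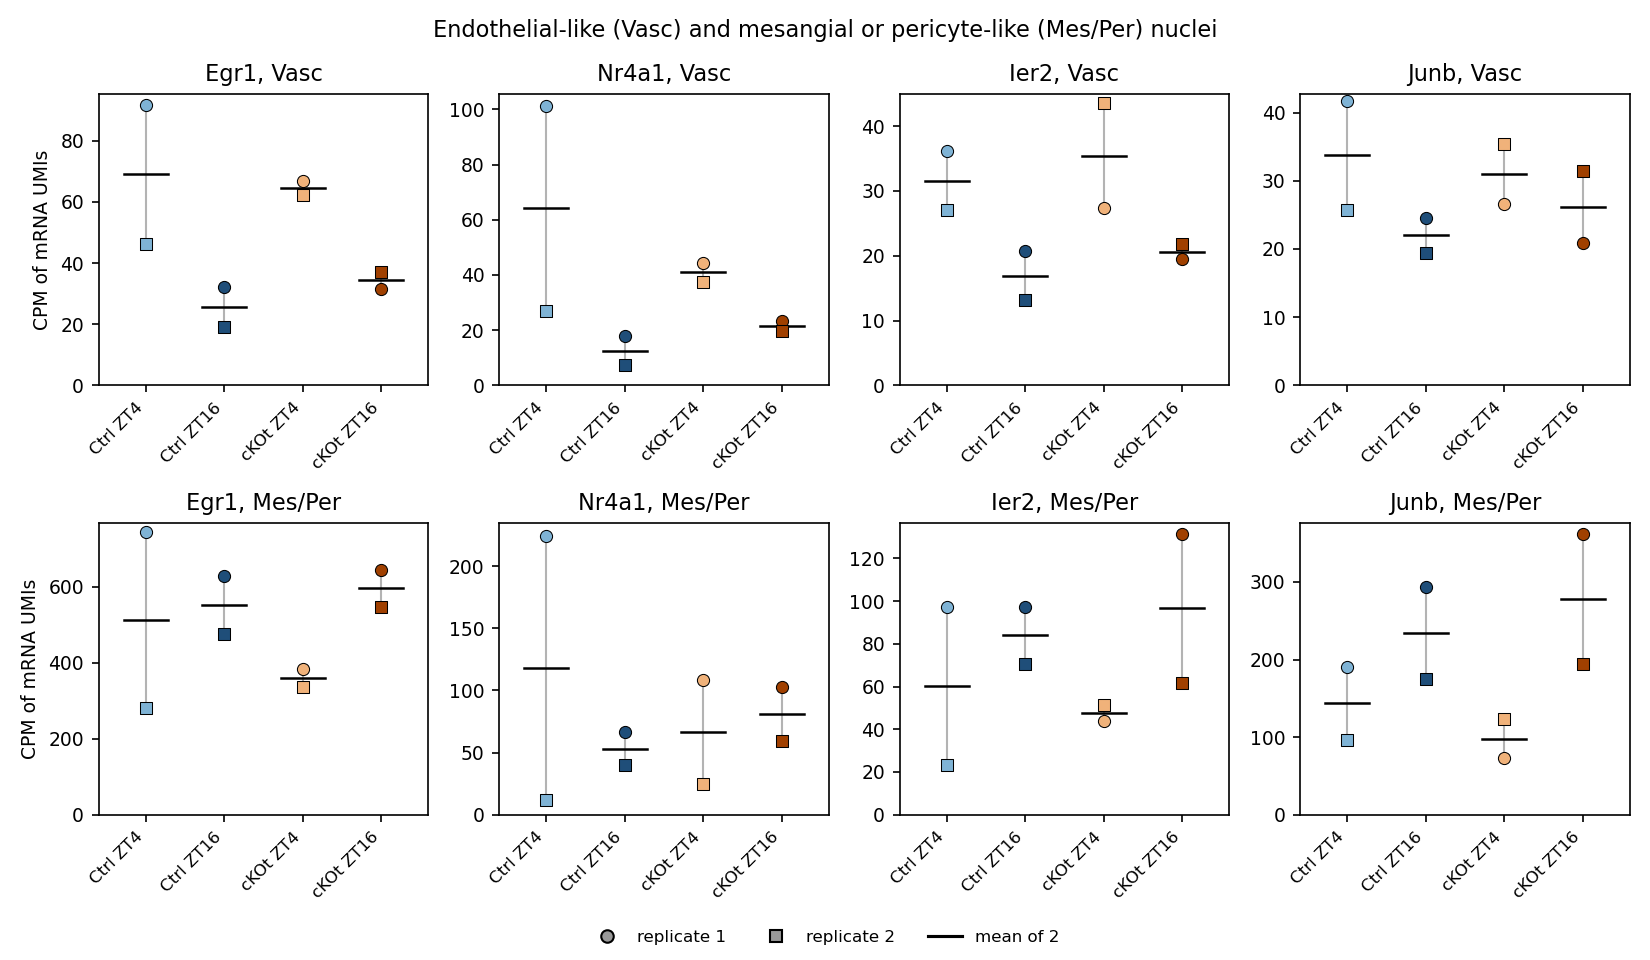
CPM of mRNA UMIs of Egr1, Nr4a1, Ier2 and Junb in Vasc nuclei (top) and Mes/Per nuclei (bottom) for the 4 groups. Circles are replicate 1, squares replicate 2 and lines the mean of the 2 mice. In Vasc the ZT16 mice of Egr1 (19.2 to 37.2 CPM) lie below the ZT4 mice (46.2 to 91.8 CPM), and in Mes/Per they lie within their range. Within cKOt alone, the Mes/Per mice at ZT16 lie above those at ZT4 for Egr1.

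The widest distances between replicate mice were those of Egr1 in the collecting duct and thin limb. In CCD Egr1 was at 506 and 3.89 CPM in Ctrl ZT4, 223 and 286 in Ctrl ZT16, 474 and 58.3 in cKOt ZT4 and 603 and 83.9 in cKOt ZT16. These rest on 330 and 5, 264 and 290, 360 and 48 and 612 and 73 UMIs. In MCD it was at 263 and 4.98 CPM in Ctrl ZT4, 95.2 and 98.5 in Ctrl ZT16, 687 and 4.67 in cKOt ZT4 and 432 and 24.5 in cKOt ZT16. The replicates of Ctrl ZT16 were close to each other in both classes, and those of the other 3 groups were far apart, always with replicate 1 above. In thinDL it was at 201 and 13.1 CPM in Ctrl ZT4, 25.7 and 102 in Ctrl ZT16, 538 and 4.47 in cKOt ZT4 and 229 and 13.0 in cKOt ZT16. Thick ascending limb-like nuclei (TAL), the next segment, had 45.2 and 7.74 CPM in Ctrl ZT4, 17.7 and 18.1 in Ctrl ZT16, 101 and 9.95 in cKOt ZT4 and 35.5 and 23.0 in cKOt ZT16. No contrast of times or genotypes in CCD, MCD, thinDL or TAL was called for Egr1 by edgeR (adjusted p from 0.593 to 1.00).

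**Figure D4:**
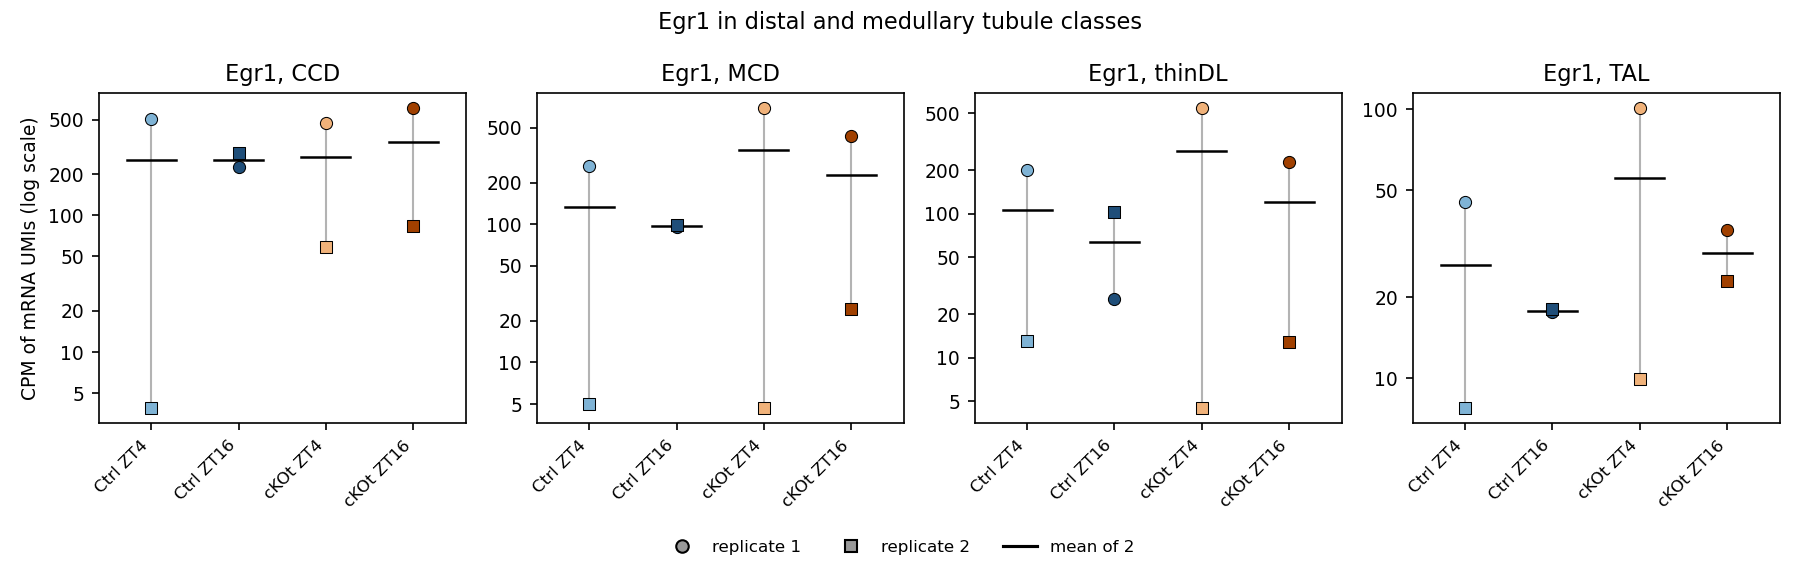
CPM of mRNA UMIs of Egr1 (log scale) in CCD, MCD, thinDL and TAL nuclei for the 4 groups. Circles are replicate 1, squares replicate 2 and lines the mean of the 2 mice. In Ctrl ZT4, cKOt ZT4 and cKOt ZT16 replicate 1 lies above replicate 2 in all 4 classes, as in CCD at Ctrl ZT4 (506 against 3.89 CPM).

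The order of replicates was shared by several members within a class. In bIC, acid-base cells of the collecting duct, Fos, Fosb, Jun, Egr1, Nr4a1 and Dusp1 were higher in replicate 1 in all 4 groups, 6 of 9 tested members against 9.28% of mRNAs. In TAL this held for Fos, Jun, Junb, Ier2 and Dusp1, 5 of 7 against 11.9%, and in Mes/Per for Fos, Jun, Egr1 and Nr4a1, 4 of 9 against 8.89%. In PCT it held for Jun alone, 1 of 8 against 14.6%, and in thinDL for none of 6 against 6.79%.

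In the proximal tubule, a target of the Pax8-driven Cre, Dusp1 was lower and Jun higher in cKOt at ZT16, and edgeR called neither with all 8 libraries. Arntl counts, which do not resolve the deleted exon, were at 10.5 and 11.5 CPM in PCT in Ctrl ZT4, 217 and 234 in Ctrl ZT16, 299.5 and 216 in cKOt ZT4 and 330.3 and 286 in cKOt ZT16. Dusp1 in PCT was at 110.2 and 48.3 CPM in Ctrl ZT4, 75.6 and 64.6 in Ctrl ZT16, 59.6 and 52.8 in cKOt ZT4 and 27.1 and 31.4 in cKOt ZT16. In PST it was at 84.6 and 26.2 CPM in Ctrl ZT4, 63.0 and 55.9 in Ctrl ZT16, 41.2 and 16.0 in cKOt ZT4 and 21.5 and 22.9 in cKOt ZT16. At ZT16 both cKOt mice lay below both Ctrl mice in both classes, and at ZT4 the genotypes overlapped. The share of all mRNAs without overlap at ZT16 was not computed for these classes, so this separation alone does not set Dusp1 apart. The log2 fold change of cKOt against Ctrl at ZT16 was −1.23 (SE 0.30) in PCT, which edgeR did not call (adjusted p = 0.226; 0.23% of 13050 mRNAs were called) and DESeq2 did (adjusted p = 0.00971). In PST it was −1.40 (SE 0.52, adjusted p = 0.470 in edgeR). Over both times it was −0.87 (SE 0.21) in PCT, again not called by edgeR (adjusted p = 0.104; 1.25% called) and called by DESeq2 (0.00407). Without Ctrl ZT4 replicate 2 edgeR called it over both times (−1.09, adjusted p = 0.00916), and without replicate 1 of that group it was −0.54 and not called. At ZT16 edgeR called it without either Ctrl ZT4 mouse (adjusted p = 0.0432 and 0.0427).

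Jun in PCT was at 131 and 43.1 CPM in Ctrl ZT4, 128 and 110.5 in Ctrl ZT16, 141 and 118 in cKOt ZT4 and 197 and 169.6 in cKOt ZT16. In PST it was at 65.5 and 7.09 CPM in Ctrl ZT4, 40.8 and 38.3 in Ctrl ZT16, 113 and 17.5 in cKOt ZT4 and 126 and 68.1 in cKOt ZT16. At ZT16 both cKOt mice lay above both Ctrl mice in both classes, again without the share over all mRNAs. Neither difference was called by edgeR (PCT 0.65, adjusted p = 0.876, and PST 1.30, adjusted p = 0.856). These classes were held by different clusters in the 2 genotypes. Cluster 2 made up 2.79 to 46.9% of Ctrl PCT nuclei and 66.7 to 84.2% of those of cKOt, and cluster 6 made up 25.0 to 72.0% and 0.425 to 5.95%. In cluster 9, present in all libraries, Dusp1 was at 91.2 and 60.9 CPM in Ctrl ZT16 and at 20.9 and 39.5 CPM in cKOt ZT16. In cluster 8, the one PST cluster with many nuclei in all libraries, Dusp1 was at 31.9 and 28.7 CPM in Ctrl ZT16 and at 20.8 and 7.86 CPM in cKOt ZT16. Jun was at 83.2 and 89.2 CPM in Ctrl ZT16 and at 179 and 124 CPM in cKOt ZT16 in cluster 9. In cluster 8 it was at 18.7 and 26.6 against 76.3 and 15.3 CPM, where the genotypes overlapped. In cluster 2, the largest PCT cluster, it was at 182 and 126 against 202 and 178 CPM, where they also overlapped. In cluster 6, with few cKOt nuclei, it was at 168 and 116 against 239 and 357 CPM. Dusp1 spans chr17:26724564-26781102 on the minus strand of GRCm39 and overlaps Ergic1 on the plus strand, and Jun overlaps Junos and Junb overlaps Prdx2 in the same way. On the same strand, Gm50274 and Gm50275 overlap Dusp1, and Gm56721 overlaps Nr4a1. These spans come from an annotation that may differ from the one used for counting. How reads of overlapping genes were counted was not examined.

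**Figure D5:**
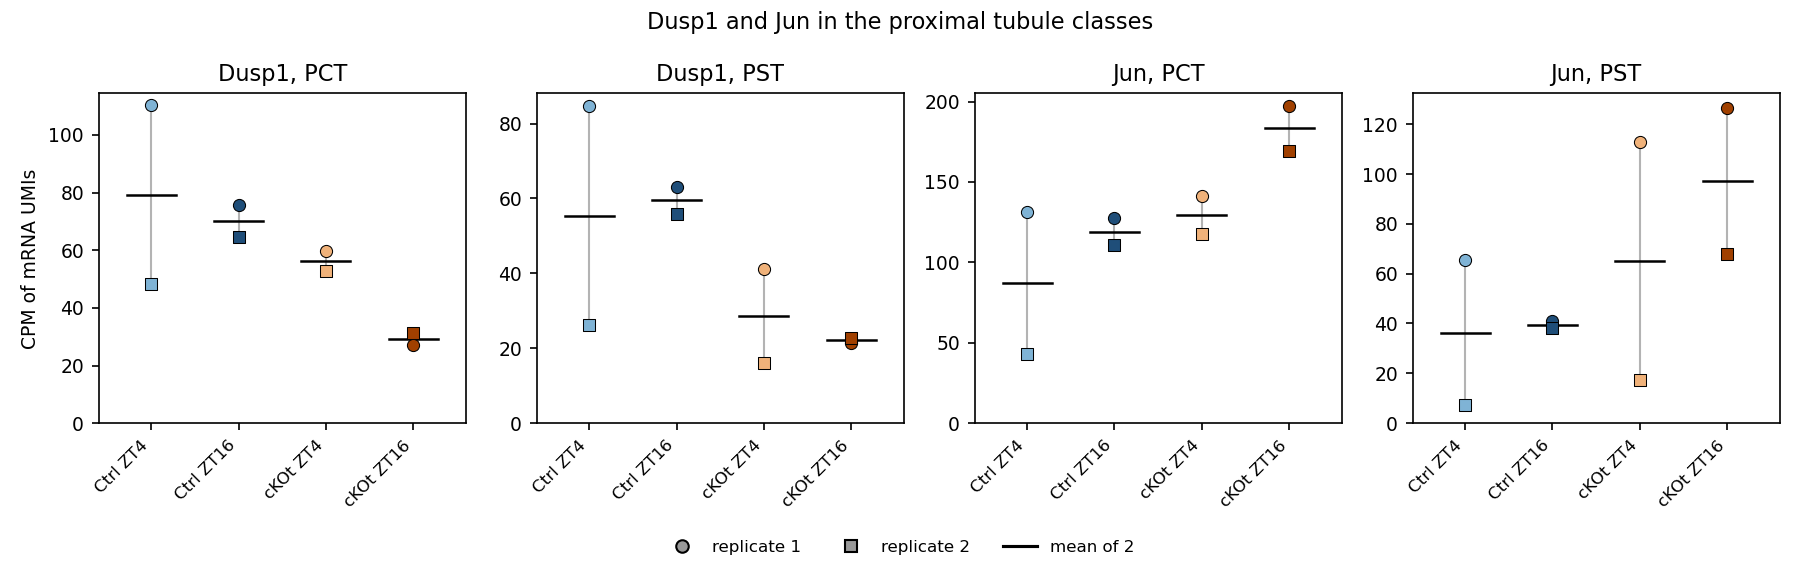
CPM of mRNA UMIs of Dusp1 and Jun in PCT and PST nuclei for the 4 groups. Circles are replicate 1, squares replicate 2 and lines the mean of the 2 mice. At ZT16 Dusp1 in PCT lies at 27.1 and 31.4 CPM in cKOt against 75.6 and 64.6 CPM in Ctrl, and Jun lies higher in cKOt than in Ctrl. With all 8 libraries edgeR called neither difference.

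Over all classes, edgeR called 0 of 122 tested pairs of member and class between times in Ctrl (0.342% of all class tests were called; 7 pairs had an unadjusted p under 0.05, as did 8.08% of all class tests) and 0 of 119 in cKOt (0.136%; 17 pairs against 6.97%). It called 0 of 114 between genotypes at ZT4 (0.272%; 8 pairs against 6.27%) and 0 of 123 at ZT16 (0.133%; 8 pairs against 5.23%). DESeq2 called 1 of these pairs between times in Ctrl, Egr1 in Vasc (0.478% of all class tests), 0 in cKOt (0.249%), 0 between genotypes at ZT4 (0.401%) and 1 at ZT16, Dusp1 in PCT (0.256%). In the added contrasts edgeR called 3 of 126 pairs between times, those in Vasc given above (0.87%; 19 pairs with p under 0.05 against 10.3%), and 0 of 126 between genotypes (0.523%; 13 pairs against 6.79%). DESeq2 called 2 of 126 between times (0.867%) and 1 of 126 between genotypes (0.636%). With the replicate number as a block, edgeR called Egr1 and Nr4a1 in Vasc between times in Ctrl (0.428% of all class tests). Between genotypes it then called Egr1 in cluster 17 at ZT4 (0.286%), and in cluster 17 and bIC over both times (0.55%). It lost Ier2 in Vasc over both genotypes.

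Several members were found together more often than their separate shares give, a comparison made here as a description without a test. With nuclei thinned to 1000 UMIs, 30 nuclei had UMIs of both Fos and Fosb, whereas the shares of each within class and library would give 4.19, a pooled ratio of 7.15. Fos and Junb were found together in 123 nuclei (71.3 from their shares), Junb and Egr1 in 696 (487), Egr1 and Nr4a1 in 298 (202) and Egr1 and Ier2 in 298 (218). For each of these 5 pairs, picked from all pairs of the 10 members, the ratio was above 1 in 8 of 8 libraries. Of the 123 nuclei with Fos and Junb, 108 were in Mes/Per, so that ratio mainly describes this class. Junb was found in 6 of 51 Vasc nuclei with a Fos UMI, in 1 of 21 in MCD, in 0 of 26 in TAL and in 0 of 30 in PCT. Klf6 was found with Junb in 77 nuclei (77.4) and with Dusp1 in 105 (107), above 1 in 4 of 8 libraries each, and with Jun in 119 (95.2). In Mes/Per, Junb was found in 19.9 ± 7.72% of 2511 nuclei with an Egr1 UMI and in 11.1 ± 5.15% of 5765 without (SD, n = 8 libraries). In Vasc the shares were 7.71 ± 4.14% of 443 nuclei and 2.198 ± 0.702% of 11806, and in PCT 2.43 ± 1.87% of 538 and 1.30 ± 0.524% of 13518. Junb was found in 7.05 ± 8.29% of 391 CCD nuclei with an Egr1 UMI and in 6.26 ± 6.05% of 1797 without, and in bIC in 1.14 ± 3.21% of 95 with (1 nucleus) and 1.99 ± 1.26% of 929 without. In bIC, Fos was found in 11.6 ± 7.49% of 95 nuclei with an Egr1 UMI and in 2.82 ± 2.51% of 929 without. These shares cover nuclei of equal UMIs, and differences in the make-up of a class were not removed.

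Across the 19 classes, the mRNAs with the level pattern nearest to each member were found by Pearson's r of mean log2(CPM + 1), given as a description over classes that share libraries. Junb and Ier2 were each other's nearest (r = 0.955). Fos was among the nearest 3 of Fosb (0.857) and of Egr1 (0.852). Zfp36, whose protein speeds the decay of early mRNAs, was among the nearest 3 of Ier2 (0.861), and Actg1, encoding a cytoplasmic actin, was nearest to Egr1 (0.857). Nr4a1 was nearest to Gnb4 (0.856) and then Epas1 (0.817), the hypoxia-inducible factor of endothelium and interstitium. Jun was nearest to Pdzd2 (0.823), with Dab2 (0.777), a proximal tubule endocytic adaptor, among its nearest 3. Klf6 was nearest to Cdc42 (0.855), Atf3 to Ank (0.860), Fos to Tafa1 (0.883) and Dusp1 to Cdan1 (0.921).

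Other genes of the early response were taken as lists. Of 6 further AP-1 genes, 20 tested other early transcription factors, 18 feedback inhibitors (dual-specificity phosphatases, Zfp36 genes and Sprouty genes among them), 14 tested secreted and other targets and 18 tested upstream regulators, edgeR called none in any contrast over all nuclei, nor any of 12 heat shock genes and 9 tubular injury genes. Of these 97 genes, 9 had an unadjusted p under 0.05 between times in Ctrl (9.95% of all mRNAs had one), 14 between times in cKOt (8.32%), 10 between genotypes at ZT4 (8.87%), 4 between genotypes at ZT16 (6.1%) and 6 for the change of the time effect (4.35%). DESeq2 called 3 between times in Ctrl (Hspb1, Myc and Zfp36l1; 1.45% of all mRNAs), 2 between times in cKOt (Ccn2 and Spry1; 1.05%), 2 between genotypes at ZT4 (Spry1 and Zfp36l1; 2.13%), 0 between genotypes at ZT16 (1.06%) and 0 for the change (0.294%). In the added contrasts it called 5 between times over both genotypes (Ccn2, Hspb1, Myc, Tob1 and Zfp36l1; 3.13%), where edgeR had 19 with p under 0.05 (13.7%), and 1 between genotypes over both times (Thbs1; 2.63%), where edgeR had 8 (10.0%). Over the libraries, AP-1 genes summed to 79.6 to 107 CPM and other early factors to 201 to 331 CPM, both lowest in Ctrl ZT4 replicate 2, the library with the lowest Fos, Jun, Junb, Egr1, Ier2 and Nr4a1. Feedback inhibitors summed to 363 to 517 CPM and targets to 1202 to 1768 CPM, also lowest there, while upstream regulators, the kinases and factors that act before the early genes, stayed between 1955 and 2109 CPM.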

How the data were processed

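Nuclei of frozen kidneys were counted by droplet sequencing, 1 library per mouse. The authors deposited UMI counts per gene and nucleus, made with bcl2fastq 2.20 and Cell Ranger 7.1.0, and used Seurat 5. The submitters' processing notes name GRCm39, while the study's methods name an mm10 reference. Here nuclei needed 500 or more genes and 800 or more UMIs, of which mitochondrial genes could hold up to 2%, and called doublets stayed in. Nuclei were clustered (leidenalg 0.10.2, igraph 0.11.9, scikit-learn 1.9.0) on genes that excluded the members, and clusters were named X-like from markers. Counts were summed per class and library, for classes with at least 10 nuclei in every library. Differences were tested with the quasi-likelihood test of edgeR 4.0.16 in 1 model of 4 groups, on mRNAs with at least 5 counts in both libraries of a compared group, with Benjamini-Hochberg adjustment at 0.05. Levels are CPM of mRNA UMIs, and log2 levels used a pseudocount of 1 CPM. Alternatives were DESeq2 1.42.0 with its size factors, a replicate block, no filter, all genes, no doublets, 5% mitochondrial UMIs, 50 principal components, other thinning and omission of each library. The 10 members were always named, other early genes as counts (the few called by DESeq2 were named after their values were seen), and for each member the 3 mRNAs nearest in level, among those of at least 10 CPM. The members and lists were chosen with earlier results of these data known.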

Additional observations from a re-analysis of the deposited data

Results flagged for a closer look

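Among 126 tested pairs of member and class, each screened by time and by genotype, 3 had all samples of one contrast move one way and all samples of the other move the opposite way. The share of all mRNAs with this pattern was not computed, so the count is not a result about the members. Junb in type A intercalated-like nuclei, on 68 UMIs, had a genotype difference that was larger at ZT16 than at ZT4 by 2.77 on the log2 scale (SE 0.94), which did not pass edgeR's test of the difference (adjusted p = 0.870). Ier2 in T or NK-like nuclei, on 36 UMIs, had a genotype difference at ZT16 that was lower than that at ZT4 (−1.66, SE 0.99, adjusted p = 0.953 in edgeR). Dusp1 in type B intercalated-like nuclei, on 95 UMIs, had a time difference in cKOt that was lower than that in Ctrl (−1.19, SE 0.73, adjusted p = 1.00 in edgeR).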

How the results depend on the processing

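Of 1067 values recomputed for 88 results, 956 stayed the same by the rule for their kind. A fold change had to keep its direction and its side of the threshold. This includes fold changes that were not called before or after. Other values had to stay within a set margin of the original value. With 2 mice per group, low UMI counts for Atf3, Fosb and Fos, and replicates several-fold apart, only large differences could pass. Groups share replicate numbers, which the labels tie to no batch, and replicate differences correlated at 0.42 between genotypes at ZT4, 0.42 at ZT16, 0.20 between times in cKOt and −0.26 to −0.029 in the other 3 pairs of groups. With no batch in the labels and not every correlation above 0.1, the samples were treated as sharing only a number. That rule does not address pairs within a time point, where both correlations were 0.42, and such pairs were not tested. Same-numbered mice of a time point were thus not modelled as pairs, and the block below used the same replicate term at both times. The genotype results at ZT4 and at ZT16 do not allow for such pairs. With the replicate number as a block, edgeR called 0 members over all nuclei in every contrast, 2 pairs of member and class between times in Ctrl (Egr1 and Nr4a1 in Vasc, adjusted p = 0.0406 and 0.0227; 0.428% of all class tests called), 1 between genotypes at ZT4 (Egr1 in cluster 17, 2.85, adjusted p = 0.0159; 0.286%) and 2 between genotypes over both times (Egr1 in cluster 17, 2.23, adjusted p = 0.0171, and in bIC, 0.92, adjusted p = 0.0465; 0.55%), and it lost Ier2 in Vasc over both genotypes (−0.83, adjusted p = 0.0628). The block in DESeq2 called 1 member between times over both genotypes (Junb, 0.61, adjusted p = 0.0124; 4.07% of mRNAs) and 1 between genotypes over both times (Jun, 0.80, adjusted p = 0.000505; 3.23%), and turned Egr1 between times in Ctrl to 0.0018 and Fos between genotypes at ZT4 to 0.020. DESeq2 without the block called 1 pair between times in Ctrl, 1 between genotypes at ZT16 and 1 between genotypes over both times. Between times in Ctrl, 2 pairs (Egr1 and Nr4a1 in Vasc) were called without doublets (0.35% of all class tests) and 2 with 50 principal components (0.339%), and Ier2 over all nuclei turned to −0.019 without doublets. For these alternatives the cause was not tested.

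Leaving out 1 mouse gave 0 to 4 called pairs between times in Ctrl (0.132 to 0.523% of all class tests), 0 to 1 between times in cKOt (0.0199 to 0.229%), 0 to 2 between genotypes at ZT4 (0.114 to 0.298%), 0 to 1 at ZT16 (0.0347 to 0.213%) and 0 to 2 over both times (0.274 to 0.644%). Between times over both genotypes it gave 0 without Ctrl ZT16 replicate 2 (0.573%) or cKOt ZT16 replicate 1 (0.32%), and 9 without Ctrl ZT4 replicate 1 (0.478%). Members whose direction turned on such an omission, none of them called, had these ranges of log2 fold change over all nuclei. Between times in Ctrl they were −1.17 to 0.38 for Atf3, −0.33 to 1.15 for Jun, −2.72 to 0.0077 for Fosb, −0.53 to 0.99 for Ier2, −0.089 to 1.00 for Junb, −0.73 to 2.48 for Fos, −0.12 to 0.24 for Klf6, −1.998 to 0.66 for Nr4a1, −0.39 to 0.69 for Dusp1 and −1.01 to 1.06 for Egr1. Between times in cKOt they were −1.63 to 0.26 for Atf3, −0.37 to 0.68 for Fosb, −0.10 to 0.67 for Ier2, −0.019 to 0.60 for Klf6, −1.04 to 0.59 for Nr4a1 and −0.44 to 1.01 for Egr1. Between genotypes at ZT4 they were −0.96 to 1.22 for Atf3, −1.87 to 0.86 for Fosb, −0.46 to 1.05 for Ier2, −0.70 to 0.39 for Junb, −1.25 to 2.08 for Fos, −0.39 to 0.24 for Klf6, −1.45 to 1.45 for Nr4a1, −0.74 to 0.34 for Dusp1 and −0.996 to 1.29 for Egr1, with −0.95 to 0.16 for Dusp1 in PCT. Between genotypes at ZT16 they were −0.39 to 0.16 for Atf3, −0.031 to 0.74 for Ier2, −0.19 to 0.55 for Junb, −0.26 to 0.55 for Fos, −0.025 to 0.32 for Klf6 and −0.0068 to 0.67 for Nr4a1.

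Counts of all mRNAs called were larger in DESeq2 than in edgeR in every contrast over all nuclei, at 234 against 23 between times in Ctrl, 168 against 0 in cKOt, 344 against 72 between genotypes at ZT4, 171 against 28 at ZT16 and 48 against 3 for the change of the time effect. They were 512 against 89 between times over both genotypes and 430 against 155 between genotypes over both times. Without a filter edgeR called 51, 10, 127, 64, 10, 213 and 235 in the same order, and with the block 15, 2, 53, 30, 0, 78 and 151.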
